A study of Mus musculus with 15 samples.

Results

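The nuclear receptor 4A (Nr4a) genes Nr4a1, Nr4a2 and Nr4a3 were examined in mouse cortex after high-frequency head impact (HF-HI). All deposited transcripts that the GENCODE M21 annotation assigns to these genes were taken, which gave 3 of the 10370 listed transcripts, 1 for each gene. The samples were dissected cortex of 12-week-old male C57BL/6 mice, collected at the 1-month time point from animals given repeated closed-head impacts under isoflurane (HF-HI, n = 8) and from unimpacted controls that were also handled and given isoflurane (Sham, n = 7). RNA came from whole tissue, so a change in cell numbers and a change of RNA per cell cannot be told apart. The family was chosen by its transcript levels in HF-HI and Sham, known from earlier results of these data, and its difference between the groups is therefore described here without a p-value.

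Nr4a1 (Nur77), Nr4a2 (Nurr1) and Nr4a3 (Nor1) are orphan nuclear receptors, transcription factors for which no classical hormone ligand is established. They are immediate early genes, switched on in neurons soon after synaptic activity through calcium and cAMP signaling and the factor CREB, and they take part in memory formation. Nr4a1 and Nr4a2 can pair with retinoid X receptors, whereas Nr4a3 is generally held not to. In forebrain, Nr4a2 also marks the claustrum and the deepest cortical layer, and Nr4a1 is abundant in striatum.

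The upstream sequences of the family are shown because CREB binds them through the letters TGACG, the core of the cAMP response element, which are given in capitals on either strand (CGTCA is the same core on the opposite strand). The sequences are from RefSeq, in GRCm38.p6, and run 5′ to 3′ on the strand of the gene. Lines for Nr4a1 (chr15:101266596-101266845, plus strand) and Nr4a2 (chr2:57124004-57124253, minus strand) hold the 250 bases before the RefSeq start site. The line for Nr4a3 (chr4:48045055-48045152, plus strand) holds the first 98 bases of its window of 250, since another annotated Nr4a3 transcript begins at the next base.
Nr4a1: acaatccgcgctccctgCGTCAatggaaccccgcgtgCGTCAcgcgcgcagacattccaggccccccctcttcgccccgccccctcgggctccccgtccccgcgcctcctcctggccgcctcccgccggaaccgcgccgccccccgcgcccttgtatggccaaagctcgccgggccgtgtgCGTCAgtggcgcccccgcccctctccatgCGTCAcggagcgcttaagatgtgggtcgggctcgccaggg
Nr4a2: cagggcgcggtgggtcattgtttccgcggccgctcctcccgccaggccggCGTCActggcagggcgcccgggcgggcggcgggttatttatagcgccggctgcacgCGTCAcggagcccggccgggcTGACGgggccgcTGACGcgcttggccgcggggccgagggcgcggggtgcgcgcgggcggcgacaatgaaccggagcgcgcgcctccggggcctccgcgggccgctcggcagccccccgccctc
Nr4a3: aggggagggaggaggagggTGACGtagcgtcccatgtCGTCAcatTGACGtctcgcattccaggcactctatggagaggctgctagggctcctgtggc

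Each of the 3 windows of 250 bases held 4 copies of the core, of which 3 are in the printed bases for Nr4a3. Among 32851 windows of the same length before mouse start sites, 17.8% held at least 1 copy and 0.137% held at least 4. The full palindrome TGACGTCA, the Nr4a binding element AAAGGTCA and the CArG box bound by serum response factor, searched on both strands, were in 0 of the 3 windows and in 1.55%, 1.34% and 1.47% of all windows. The matches are a description of letters and not of occupied sites. GC content was 74.4% for Nr4a1, 80.0% for Nr4a2 and 63.6% for Nr4a3, against a median of 52.4% over all windows. The RefSeq start coincided with the start of the listed transcript for Nr4a1 and Nr4a2. For Nr4a3 it lay 3809 bases upstream of the listed transcript, which has an annotated start of its own.

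Nr4a3 had the largest ratio of mean normalized counts of the 3 members and was higher in HF-HI. Its listed transcript, ENSMUST00000153369, is a coding transcript of 5068 bases in 8 exons (chromosome 4, 48049114 to 48086447, plus strand, GRCm38). In normalized counts, which are reads divided by the size factor of the library, the Sham libraries ranged from 106 in replicate 2 through a median of 168 to 195 in replicate 5. The HF-HI libraries ranged from 196 in replicate 5 through a median of 279 to 405 in replicate 1. All 8 HF-HI libraries therefore lay above all 7 Sham libraries, as was the case for 10 of the 10370 transcripts (0.0964%), while 6 (0.0579%) had all HF-HI libraries below. The separation was very narrow at its edge. The highest Sham library (279 reads) and the lowest HF-HI library (238 reads) were 0.494 normalized counts apart, less than the 0.822 that a single read was worth in the latter, and the next HF-HI library stood at 244. The group means of 157 ± 38.0 and 291 ± 65.8 (SD) gave a log2 ratio of 0.89, or 1.86-fold. On the variance-stabilized (VSD) log2 scale of the deposited values, which compresses changes of low counts, the difference was 0.21 ± 0.04 (SE of the limma fit).

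Nr4a1 was higher in HF-HI on average, with overlap between the groups. Its listed transcript is ENSMUST00000023779, a coding transcript of 2477 bases in 7 exons (chromosome 15, 101266846 to 101274795, plus strand). Sham libraries ranged from 225 normalized counts in replicate 2 through a median of 581 to 828 in replicate 4, and HF-HI libraries from 557 in replicate 2 through 808 to 992 in replicate 6. The HF-HI libraries were the more uniform, 7 of 8 of them lay above the Sham median, and 4 lay above every Sham library. The means were 561 ± 199 and 819 ± 141 (SD), a log2 ratio of 0.55 and a VSD difference of 0.23 ± 0.08 (SE), which on that scale was slightly above that of Nr4a3. Without Sham replicate 2, whose value was the lowest of all 15 libraries, the VSD difference was 0.17.

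Nr4a2 did not share this direction. Its listed transcript is ENSMUST00000112629, a coding transcript of 3422 bases in 8 exons (chromosome 2, 57106830 to 57124003, minus strand). Sham libraries ranged from 70.1 normalized counts in replicate 2 through a median of 193 to 234 in replicate 3, and HF-HI libraries from 78.5 in replicate 2 through 157 to 194 in replicate 4. The groups overlapped almost wholly, with 1 of 8 HF-HI libraries above the Sham median. The means were 168 ± 58.9 and 150 ± 37.8 (SD), a log2 ratio of −0.17. The VSD difference was −0.03 ± 0.05 (SE of the limma fit), smaller in size than its SE.

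**Figure D1:**
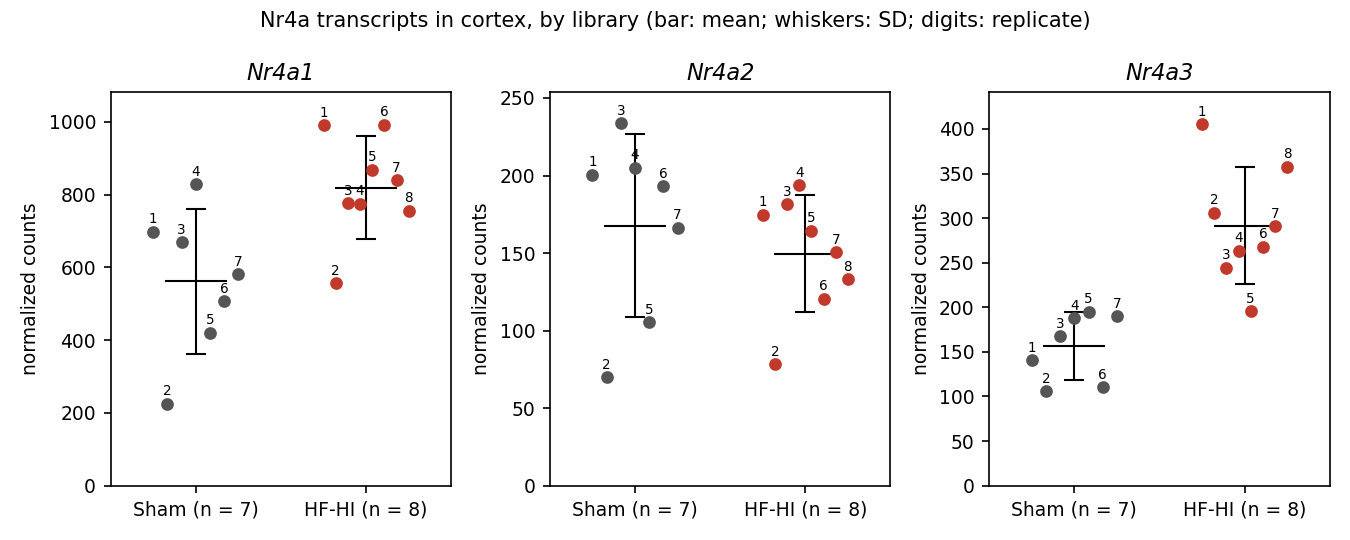
Normalized counts (vertical axis, linear, from 0) of the listed Nr4a1, Nr4a2 and Nr4a3 transcripts in each Sham (gray, n = 7) and HF-HI (red, n = 8) library; points are libraries labeled by replicate number, bars are means and whiskers are SD. HF-HI libraries sit above every Sham library for Nr4a3, from 196 to 405 against 106 to 195, overlap with them for Nr4a1, and lie within the Sham range for Nr4a2 (78.5 to 194 inside 70.1 to 234), while Sham replicate 2 is the lowest Sham library in all panels.

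Among all listed transcripts, the log2 ratio of Nr4a3 was exceeded by 22 and that of Nr4a1 by 117, while 1069 transcripts had a lower ratio than Nr4a2. No transcript of the table passed a Benjamini-Hochberg adjusted p of 0.1 in limma (0 of 10370, smallest adjusted p = 0.206), the Nr4a transcripts included, and 916 (8.83%) had an unadjusted p under 0.05. Nothing about the family was read from these counts, because the same contrast had led to its choice.

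Each gene was represented by a single transcript, and others were not analysed here. GENCODE M21 annotates 4 transcripts for Nr4a1, 6 for Nr4a2 and 4 for Nr4a3. The longer Nr4a3 transcript ENSMUST00000030025 covers 98.5% of the listed one, ENSMUST00000228985 covers 94.9% of the listed Nr4a1 transcript, and ENSMUST00000028166 covers 94.9% of the listed Nr4a2 transcript. The authors' counting divided reads among such isoforms, so each value describes a transcript and not the whole gene. No other annotated gene overlaps the 3 listed transcripts.

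Levels of the listed transcripts can be compared with each other only per length of transcript. Nr4a1 was the most abundant in all 15 libraries, with 227 ± 80.4 normalized counts per kb in Sham and 331 ± 56.8 in HF-HI (SD). Nr4a2 had 49.0 ± 17.2 and 43.7 ± 11.0, and Nr4a3 had 31.0 ± 7.49 and 57.5 ± 13, in the same order. Nr4a2 ranked above Nr4a3 in 5 of 7 Sham libraries, and Nr4a3 ranked above Nr4a2 in 5 of 8 HF-HI libraries. In neither group was the gap between these neighbors larger than the sum of their SDs. The level of Nr4a2 relative to Nr4a1 was 0.219 ± 0.0356 in Sham, from 0.179 to 0.276, and 0.133 ± 0.0309 in HF-HI, from 0.0879 to 0.181. The ranges overlapped narrowly, with Sham replicate 4 just below HF-HI replicate 4. The ratio of Nr4a3 to Nr4a1 overlapped widely, at 0.151 ± 0.0566 in Sham and 0.179 ± 0.0522 in HF-HI. The summed level of the 3 listed transcripts, without the isoforms not listed, went from 307 ± 99.4 to 432 ± 64.5 normalized counts per kb. Of this sum the Nr4a1 transcript supplied 73.1% ± 3.05 in Sham and 76.4% ± 3.21 in HF-HI. The share of Nr4a2 was 15.9% ± 2.46 in Sham and 10.1% ± 2.25 in HF-HI, and that of Nr4a3 was 10.9% ± 3.71 and 13.5% ± 3.51.

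**Figure D2:**
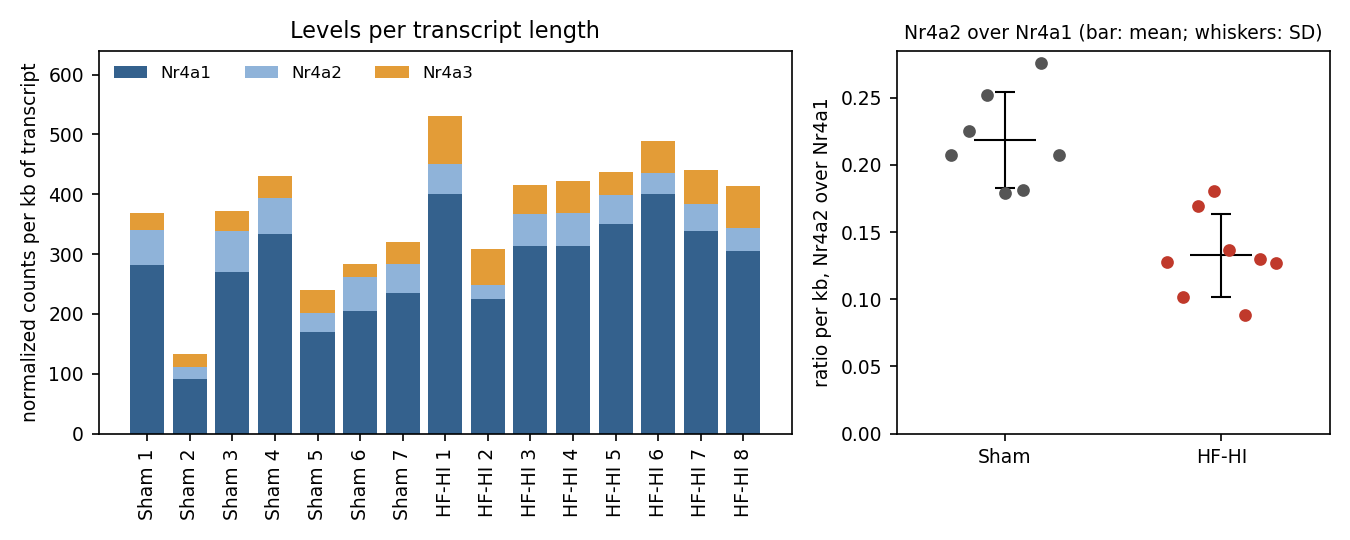
Left, normalized counts per kb of transcript (vertical axis, linear, from 0) of Nr4a1, Nr4a2 and Nr4a3, stacked for each library; right, the ratio of Nr4a2 to Nr4a1 per kb in each Sham (gray) and HF-HI (red) library, with bars for means and whiskers for SD. Nr4a1 forms most of every stack, and the ratio lies between 0.179 and 0.276 in Sham and between 0.0879 and 0.181 in HF-HI.

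The spread of the family between libraries was larger than read counting alone would give. In Sham the coefficient of variation was 35.5% for Nr4a1, 35.1% for Nr4a2 and 24.2% for Nr4a3, against 3.82%, 7.07% and 7.24% from counting. In HF-HI it was 17.2%, 25.3% and 22.6%, against 3.88%, 9.13% and 6.54%. Set beside the 500 transcripts nearest in mean level, the SD of Nr4a1 within groups (0.161 in VSD) was higher than in 93.2% of them. The corresponding figures were 77.4% for Nr4a2 and 74.8% for Nr4a3.

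Sham libraries were on the whole the deeper ones. Their reads over all listed transcripts numbered 5798810 to 10582858, and those of HF-HI libraries 3496103 to 8666307. With the log2 size factor as a covariate, the VSD difference was 0.21 for Nr4a3, 0.27 for Nr4a1 and −0.02 for Nr4a2. Among the 6 Sham and 3 HF-HI libraries with a size factor above 1, it was 0.18 for Nr4a3, 0.24 for Nr4a1 and 0.01 for Nr4a2. HF-HI replicate 2 stood apart on the first principal component, at 12.6 against −3.35 to 0.721 for the other libraries. Without it the differences were 0.21, 0.26 and −0.01, in the same order.

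Whether the members vary together was asked around their own group means, since covariation there does not use the difference between HF-HI and Sham. Nr4a1 and Nr4a2 varied together. Over 15 libraries with group means removed, Pearson's r was 0.794 (permutation within groups, two-sided p = 0.00231, adjusted p = 0.0208 over 9 relations) and Spearman's rho was 0.586 (permutation p = 0.0398, adjusted p = 0.179). Over both groups the relation did not hold without the Sham and the HF-HI library lowest in both genes. Without Sham replicate 2 and HF-HI replicate 2, r was 0.462 when the remaining deviations were kept and 0.454 when group means were taken anew (permutation p = 0.201). Within the Sham group r was 0.910 (n = 7, exact permutation p = 0.00575, adjusted p = 0.0259) and 0.839 without Sham replicates 2 and 4, and within the HF-HI group it was 0.524 (n = 8, exact permutation p = 0.189) and 0.152 without HF-HI replicates 2 and 6.

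Nr4a3 was not shown to vary with either relative. Its r was 0.296 with Nr4a1 (rho 0.114, permutation p = 0.279 for r and 0.691 for rho) and 0.0468 with Nr4a2 (rho −0.0857, permutation p = 0.868 and 0.748). Without Sham replicate 2 and HF-HI replicate 2, the values were 0.151 and −0.234. HF-HI replicate 2 had the lowest HF-HI value of Nr4a1 and Nr4a2 but 306 normalized counts of Nr4a3, above the HF-HI median.

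A list of 37 genes regulated by neuronal activity, among them Arc, Fos, Egr1 and Dusp6, had 29 listed transcripts of 23 genes. It was written with earlier results of these data known. Its correlations with the Nr4a transcripts were added after seeing the data, so their p-values are descriptive. Nr4a1 followed the mean of this list closely within groups. Pearson's r over 15 libraries was 0.917 (permutation within groups, p = 3.0e-05, adjusted p = 0.00144 over 48 relations) and rho was 0.857 (permutation p = 1.7e-04). Without the 2 libraries farthest from the median of the list, r was 0.783, and without any single library it lay between 0.825 and 0.940. Within each group r was 0.923 in Sham (n = 7, exact permutation p = 0.00516) and 0.90 in HF-HI (n = 8, exact permutation p = 0.00246), with adjusted p of 0.0619 and 0.0589 over 24 relations, both above 0.05.

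For Nr4a2 the same r was 0.683 (rho 0.593, permutation p = 0.0124 and 0.0323, adjusted p = 0.298 for r), and it was 0.409 without the 2 farthest libraries and 0.152 without Sham replicate 2 and HF-HI replicate 2. For Nr4a3 it was 0.447 (rho 0.232, permutation p = 0.0896 and 0.423). Within Sham (n = 7), r was 0.775 for Nr4a2 and 0.718 for Nr4a3 (exact permutation p = 0.0433 and 0.049, adjusted p = 0.235 for both over 24 relations). Within HF-HI (n = 8), it was 0.479 and 0.178 (exact permutation p = 0.229 and 0.678). Differences between the groups, and between these correlations and that of Nr4a1, were not tested. No relation with the log2 size factor was shown within groups, where r was 0.184 for Nr4a1, 0.0380 for Nr4a2 and 0.0178 for Nr4a3 (rho 0.182, −0.0214 and 0.121; permutation p for r of 0.462, 0.887 and 0.954).

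**Figure D3:**
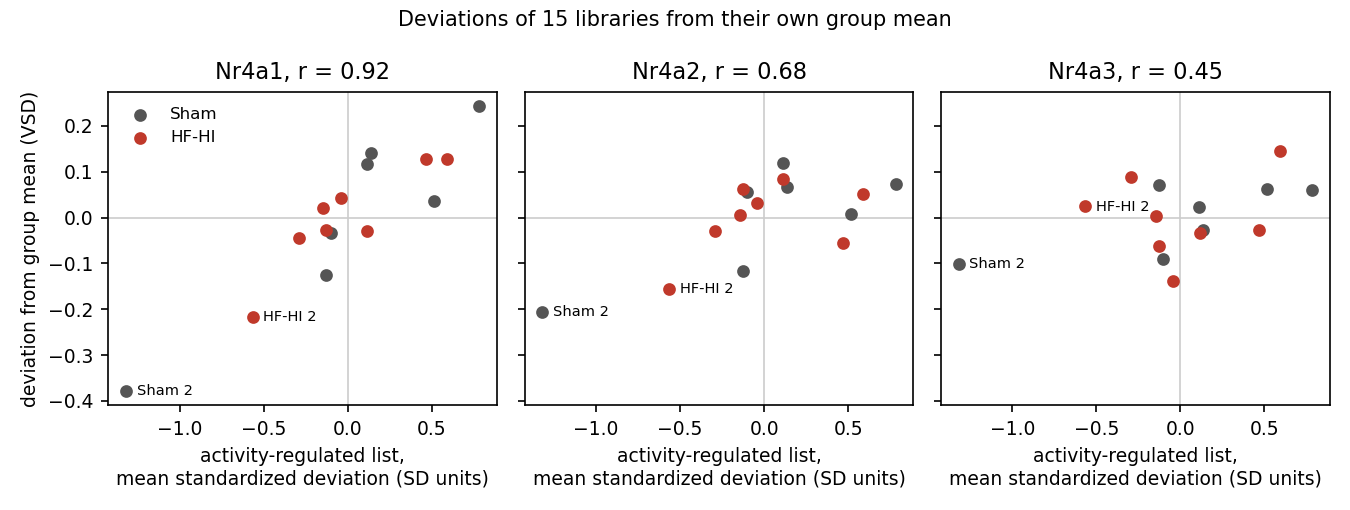
Deviation of each library from its group mean for Nr4a1, Nr4a2 and Nr4a3 (vertical axis, VSD) against the mean standardized deviation of the 29 activity-regulated transcripts (horizontal axis, SD units), Sham in gray and HF-HI in red. The 15 libraries lie along a line for Nr4a1 (r = 0.917), with Sham replicate 2 at the low end, and scatter more widely for Nr4a2 (r = 0.683) and Nr4a3 (r = 0.447).

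The transcripts most like each member were ranked by Pearson's r of deviations from group means over the 15 libraries, as a description. For Nr4a1 they were Gfra1 (r = 0.903), a receptor for glial cell line-derived neurotrophic factor, followed by Arc (0.877), a regulator of AMPA receptor endocytosis, Trib1 (0.872), the MAP kinase phosphatase Dusp6 (0.839) and the AP-1 factor Fos (0.837). Of these 5 genes, 4 belong to the activity-regulated list. For Nr4a2 they were Mon2 (0.860), Ick (0.855), the splicing factor Rbm39 (0.828), the chromatin remodeler subunit Arid1b (0.819) and Zfp827 (0.810). For Nr4a3 they were the NAD kinase gene Nadk (0.861), Arhgap21 (0.824), the TGF-beta signal transducer Smad3 (0.799), Gpr107 (0.785) and the lincRNA A330023F24Rik (0.778). None of these last 10 genes is on the list.

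Taken over whole lists, 18 of 29 activity-regulated transcripts (62.1%) had r above 0.5 with Nr4a1, against 2.98% of all transcripts. For Nr4a2 the count was 12 of 29 (41.4%, against 2.92%), and for Nr4a3 it was 1 of 29 (3.45%, against 2.16%), the exception being Homer1 at 0.520. Sham replicate 2, low in many of these genes, enters each of these values.

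**Figure D4:**
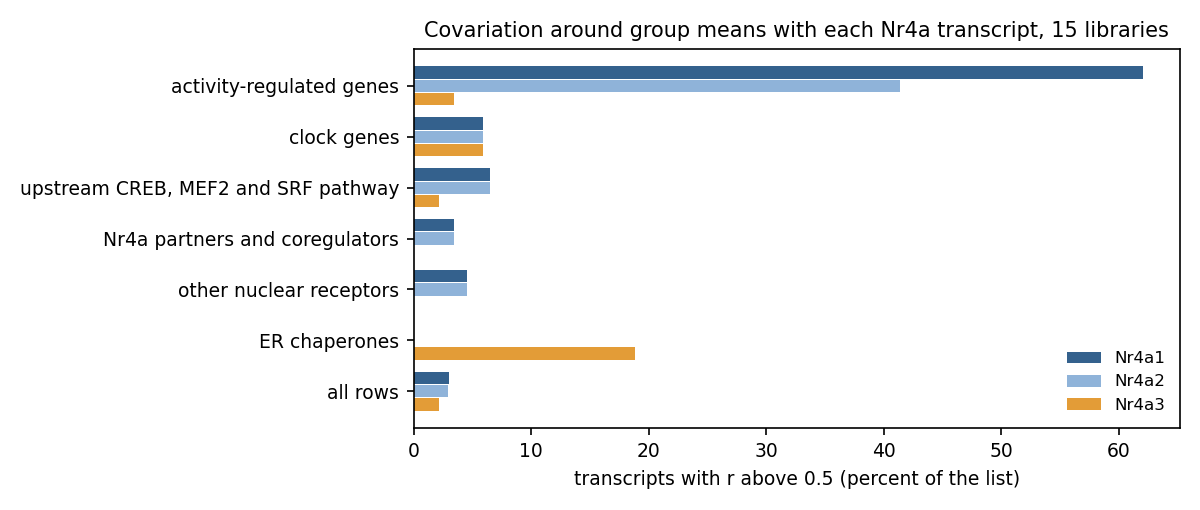
Percent of the listed transcripts in each gene list (horizontal axis, from 0) whose deviations from group means had r above 0.5 with Nr4a1, Nr4a2 or Nr4a3 over 15 libraries. The activity-regulated list stands at 62.1% for Nr4a1, 41.4% for Nr4a2 and 3.45% for Nr4a3, against 2.16% to 2.98% over all transcripts.

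The remaining genes of the pathway were compared between HF-HI and Sham with limma, and a transcript was called higher or lower where its unadjusted p was under 0.05. None passed an adjusted p of 0.1. Of the 29 activity-regulated transcripts, 17 (58.6%) were called higher and 0 lower, against 4.94% called higher and 3.90% called lower over all transcripts. The median log2 ratio was 0.34, against −0.00 over all transcripts. The largest ratios among those called were those of Arc (ENSMUST00000110009, 0.91) and Fos (0.77), between the ratios of Nr4a3 and Nr4a1 or above both. The smallest were those of the kinase Plk2 (1383 ± 120 to 1518 ± 65.4 normalized counts, 0.13) and of Dusp6 (664 ± 126 to 815 ± 92.9, 0.30). The activity-regulated factors Egr3 (202 ± 30.3 and 205 ± 55.6), Jun (223 ± 30.9 and 227 ± 41.9) and Npas4 (166 ± 88.3 and 182 ± 30.2) were not called. In the libraries with a size factor above 1, 8 of the 29 were called, all higher. Calls over all 10370 transcripts also fell there, to 541 from 916 in the main fit. Earlier results of these data were known when this list was written, so its direction is not independent evidence.

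Genes that carry the signal to Nr4a promoters were called in both directions. Of 46 transcripts of the CREB, MEF2 and SRF pathway, 5 were higher and 6 lower (23.9% called, against 8.83% of all transcripts), with a median log2 ratio of 0.01. CREB itself is encoded by Creb1, whose transcript ENSMUST00000087366 fell (448 ± 87.4 to 287 ± 129) while ENSMUST00000049932 rose (261 ± 93.0 to 395 ± 156). The calcium-dependent kinase subunit gene Camk2b also had a transcript in each direction, as ENSMUST00000109815 rose (836 ± 373 to 1379 ± 436) and the more abundant ENSMUST00000109813 fell (3131 ± 413 to 2655 ± 345). A transcript of the calcium channel Cacna1c fell (516 ± 86.1 to 419 ± 90.6). The CREB coactivator Crtc1 (574 ± 50.8 and 529 ± 50.7) and the main transcript of Mef2c (4828 ± 331 and 4864 ± 616) were not called.

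Partners and coregulators of the receptors were near the background. Of 29 transcripts, 1 was higher and 2 were lower (10.3%, against 8.83%), with a median log2 ratio of −0.02. The retinoid X receptor gene Rxrb had the transcript that rose (143 ± 39.4 to 182 ± 30.6), while its other transcript went from 177 ± 25.8 to 149 ± 28.1 and was not called. Those that fell were the histone deacetylase gene Hdac2 (504 ± 32.0 to 459 ± 41.5) and the RNA-binding corepressor gene Nono (718 ± 23.4 to 673 ± 26.9). Rxra (227 ± 16.5 and 223 ± 26.2) and Rcor1, which encodes the CoREST corepressor (228 ± 19.5 and 246 ± 29.7), were not called.

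Other nuclear receptor genes had 22 listed transcripts, of which 3 were higher and 0 lower (13.6% called, against 8.83% of all transcripts), with a median log2 ratio of 0.00. Those that rose were 1 transcript each of Rorb (126 ± 83.4 to 224 ± 97.6), of Rxrb (given above) and of the clock repressor Nr1d1 (439 ± 32.1 to 525.8 ± 63.2). The more abundant Rorb transcript ENSMUST00000112832 was not called (972 ± 152 and 974 ± 124). Among 16 transcripts of endoplasmic reticulum chaperones, a gene group reported to act downstream of Nr4a factors in memory, 1 was higher and 2 were lower (18.8%, against the same share). Calr had a transcript with a retained intron that rose (106 ± 46.0 to 191 ± 96.9) and a coding transcript that fell (1529 ± 69.4 to 1353 ± 142), and the disulfide isomerase Pdia6 fell (507 ± 43.6 to 441 ± 36.7). Of 8 genes that depend on Nr4a2 in dopamine neurons, only Aldh1a1 and Vip were listed, and neither was called.

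**Figure D5:**
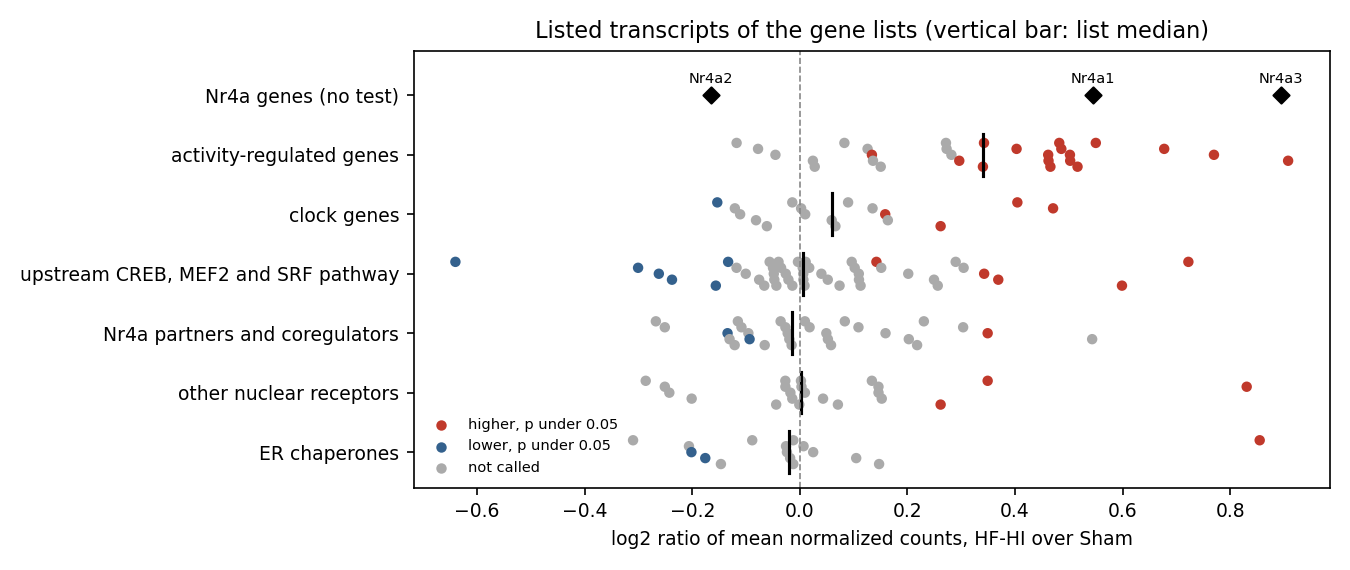
Log2 ratio of mean normalized counts, HF-HI over Sham (horizontal axis), for the Nr4a transcripts (black diamonds, not tested) and for each listed transcript of the pathway lists, colored red or blue where called higher or lower at a limma unadjusted p under 0.05; vertical bars are list medians. Nr4a3 (0.89) and Nr4a1 (0.55) fall among the activity-regulated transcripts called higher and Nr4a2 (−0.17) below 0, while the other lists except the clock genes center near 0.

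Transcripts of several other gene groups were called, and their part in the differences of the Nr4a transcripts was not tested. Of 17 transcripts of clock genes, 4 were called higher (Per2, Bhlhe40, Nr1d1 and Cry2) and 1 lower (Npas2), which is 29.4% against 8.83% of all transcripts. The clock gene Per1 was counted in the activity-regulated list instead. Its transcripts ENSMUST00000101004 and ENSMUST00000021271 were called higher there (log2 ratios of 0.46 and 0.50). Of 16 transcripts of striatal markers, 3 were called lower (18.8%, against 3.90% of all transcripts called lower), 1 each of Pde10a, Ppp1r1b and Penk. The other listed transcripts of Pde10a and Ppp1r1b were not called and went in both directions. Their log2 ratios ran from −0.24 (Pde10a, ENSMUST00000115717) to 0.37 (Ppp1r1b, ENSMUST00000137634). The summed level of the list spanned 9376 to 13812 normalized counts in Sham libraries and 6866 to 13477 in HF-HI libraries. Around group means, r with the striatal list was 0.154 for Nr4a1, −0.000781 for Nr4a2 and −0.482 for Nr4a3 (rho 0.268, 0.0643 and −0.407; permutation p for r of 0.564, 0.998 and 0.0900). For Nr4a2 this pooled opposite signs, with r of 0.540 in Sham (n = 7, rho 0.750, exact permutation p = 0.183 and 0.0663) and −0.520 in HF-HI (n = 8, rho −0.690, exact permutation p = 0.186 and 0.0694), and the difference between the groups was not tested. Claustrum and deep layer markers had 4 listed transcripts, of which 1 of Gnb4 was called lower (25%, against 8.83% of all transcripts called). Their sum spanned 2033 to 2699 in Sham libraries and 2169 to 2425 in HF-HI libraries. Neuronal markers such as Snap25 and Slc17a7 were listed for 9 of 9 genes, with 1 of 25 transcripts called (4%, against 8.83%). Ttr, the listed marker of choroid plexus, spanned 35 to 6685 normalized counts in Sham libraries and 21 to 8663 in HF-HI libraries, the highest value being that of HF-HI replicate 2. Microglial (5 transcripts), astrocytic (12), endothelial (7), oligodendrocyte (18), hippocampal (3) and blood (4) markers had 1, 1, 0, 0, 0 and 0 called. The shares were 20% for microglial, 8.33% for astrocytic and 0% for each of the others, against 8.83% of all transcripts. Those called were 1 transcript each of P2ry12 and Aldoc, both lower.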

How the data were processed

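Cortical total RNA of 7 Sham and 8 HF-HI mice was sequenced as stranded libraries. Per the study's methods and the submitters' notes, reads were aligned to mm10 with STAR, counted per Ensembl transcript with eXpress and scaled with DESeq2. The authors deposited variance-stabilized log2 values for 10370 transcripts. The transcript release is not given in the sources used here.

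The transformation was inverted from its value at a count of 0 (VSD of 9.81). In every library 100% of values under 5000 normalized counts were then whole multiples of 1 read, within 0.1 reads, which gave size factors, reads and normalized counts. No transcript averaged under 107.9 normalized counts, so scarce transcripts were not analysed here. Transcripts were named by GENCODE M21 (GRCm38), which matched all but 129. Upstream sequences are from RefSeq, GRCm38.p6, and all 3 genes matched.

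HF-HI was compared with Sham by limma 3.58.1 (R 4.3.3) over all transcripts, with group as the only term and trended eBayes, two-sided, Benjamini-Hochberg at 0.1. Correlations used 100000 permutations within groups, or exact permutations within a group. List means standardized each transcript by its SD within groups. The code was tested on simulated data. Members, lists and the rule for named genes were chosen with earlier results of these data known: all Nr4a transcripts, the 5 most alike, and in each list the largest and smallest ratios among those called, with a few receptor and CREB pathway genes. Egr3, Jun, Npas4, Homer1, Per1 and the genes of the cell type and clock lists were named after their values were seen. Correlations with list means were added after seeing the data. P-values set each result against the spread between these libraries. No pair of libraries of the same group agreed within counting noise.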

Additional observations from a re-analysis of the deposited data

How the results depend on the processing

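Under the alternatives tried (scaling, weights, pseudocounts of 1 and 10, voom on recovered reads, depth, replicate block without HF-HI replicate 8), the Nr4a3 and Nr4a1 differences stayed higher in HF-HI. The variance prior and the filter were also varied, but neither can change the difference of a transcript that is kept. Reads summed per gene were no further check on the family, since only 1 transcript of each Nr4a gene was listed. Leaving out 1 library gave 0.191 to 0.232 for Nr4a3, 0.168 to 0.272 for Nr4a1 and −0.0629 to −0.00635 for Nr4a2 in VSD. Nr4a2 was removed by the filter at a mean of 200 normalized counts, and turned to 0.0139 in libraries with a size factor above 1 (this subset, the removal of replicate 2 of both groups and all list correlations were chosen after seeing the data). The count of 916 transcripts called fell to 533 with depth as a covariate and 541 in those libraries, and was 748 to 987 without 1 library. Activity-regulated calls fell from 17 to 8 in those libraries, which are 9 of 15, and were 18 without HF-HI replicate 2.

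The Nr4a1 and Nr4a2 correlation was 0.454 without replicate 2 of both groups, and 0.636 to 0.868 without 1 library. That of Nr4a1 and Nr4a3 was 0.0561 to 0.389. That of Nr4a2 and Nr4a3 turned to −0.257 (without Sham replicate 2), −0.00284 (without Sham replicate 4), −0.0409 (without HF-HI replicate 1) and −0.251 (without replicate 2 of both groups), and reached 0.155. With the activity-regulated list, Nr4a2 ranged from 0.409 (without Sham replicate 2, permutation p = 0.164) to 0.763, was 0.627 without HF-HI replicate 2 (permutation p = 0.0572) and 0.152 without both. Nr4a3 ranged from 0.276 to 0.537, with permutation p of 0.0465 without HF-HI replicate 2 and 0.0425 without HF-HI replicate 8. The causes were not tested.

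Sham and HF-HI share replicate numbers in the labels, and whether these numbers pair the libraries was not settled. Across all transcripts, correlations of same-numbered deviations ran from −0.138 to 0.0905 over 7 pairs. For Nr4a1 and Nr4a2, replicate 2 was the lowest library of both groups. The fit with a replicate block left out HF-HI replicate 8, which has no Sham library of its number. Its differences were 0.199 for Nr4a3, 0.238 for Nr4a1 and −0.0244 for Nr4a2, with 890 transcripts called, 17 of them activity-regulated. Without HF-HI replicate 8 and without the block the differences were the same, and 929 transcripts were called. The block therefore changed the SE and not the differences. In the same order, the SE was 0.0458, 0.0563 and 0.0297 with the block, and 0.0407, 0.0826 and 0.0511 without it in the same libraries. In the main fit of all 15 libraries it was 0.0402, 0.0775 and 0.048.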

Other observations

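Gfra1 (ENSMUST00000129100) was the transcript most like Nr4a1 around the group means (r = 0.903 over 15 libraries, 0.953 in Sham, 0.751 in HF-HI and 0.797 without Sham replicate 2), yet its level was lower in HF-HI, where it averaged 101 ± 10.5 (SD) normalized counts against 146 ± 35.5 in Sham, a log2 ratio of −0.53, where that of Nr4a1 was 0.55. It was chosen after its values were seen, and the opposite direction was not tested.

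Nr4a3 had r above 0.5 with 3 of 16 transcripts of endoplasmic reticulum chaperones (18.8%), against 2.16% of all transcripts, the highest being Pdia6 at 0.693. Nr4a1 and Nr4a2 had 0 of 16. The mean of the chaperone list was not shown to follow Nr4a3 (r = 0.431, rho 0.457, permutation p = 0.0732 and 0.0718, adjusted p = 0.540 for r over 48 relations).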
